A study of Arabidopsis thaliana with 357 samples.

Results

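The 9 Arabidopsis genes described here, of 33600 in the count table, were followed across all genotypes and times of a flg22 time course. They are AT1G14880 (PCR1), AT1G30070, AT1G58225, AT2G15220, AT3G16530, AT3G29000, AT5G24530 (DMR6), AT5G27760 and AT5G64000 (SAL2). They are marker candidates for the ethylene (ET) signaling sector, because their transcripts rose after flg22 and rose less in every ein2 genotype than in its EIN2 counterpart. They were thus chosen by measured values of these libraries, the responses of EIN2 and ein2 genotypes and of wild type and fls2, and those are given below as a description without a test. All 9 passed the filter on low counts, which 11848 genes passed.

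The plants were 31 to 32 days old and grew at 22 °C and 75% humidity with a 12 h photoperiod. Leaves of 17 genotypes were either untouched (0 h) or infiltrated with flg22 at 1 μM and collected at 6 later times (1 h, 2 h, 3 h, 5 h, 9 h, 18 h). With 3 replicates this gave 357 Tag-Seq libraries. Each replicate pooled leaves of its own 4 experiments, 3 leaves per plant, so that libraries with the same replicate number share their experiments. Of the genotypes, 16 were every combination of intact or mutated DDE2 (allele dde2-2), EIN2 (allele ein2-1), PAD4 (allele pad4-1) and SID2 (allele sid2-2). They are written with the letters J, E, P and S for an intact JA, ET, PAD4 or SA sector. Lower case stands for a disabled sector, so that JEPS is wild type (Col-0), JePS is the ein2 single mutant and jeps is the quadruple mutant. All mutants, fls2 included, were in the Col-0 background. The remaining genotype, fls2, lacked the flg22 receptor and had the other 4 genes intact. The mutations were in every cell of the plant. Mock-infiltrated leaves are not analysed here, so fls2 at the same time is the value to set beside each flg22 response.

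Flg22 is a peptide of bacterial flagellin that FLS2, a receptor kinase at the cell surface, recognises, and recognition sets off calcium influx, an oxidative burst, kinase cascades and ethylene production. Ethylene is perceived by receptors in the endoplasmic reticulum that keep the kinase CTR1 active when no hormone is bound. EIN2 is a membrane protein downstream of CTR1, and ethylene responses need it because its carboxyl-terminal part stabilises the transcription factors EIN3 and EIL1. DDE2 (allene oxide synthase) makes a jasmonate (JA) precursor, SID2 makes the salicylate (SA) precursor isochorismate, and PAD4 is a lipase-like immune regulator that acts with EDS1.

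Level means the log2 count per library scaled by the library's 90th percentile count, set to 300, and values per library are given as normalized counts on that linear scale. Response means the fitted level at a time minus the level at 0 h in the same genotype. The libraries held 372525 to 5130803 reads on genes, with a median of 1275620. The medians of the mutated genes' transcripts were lower in the mutants. The median of EIN2 itself was 97.9 normalized counts in the 168 EIN2 libraries and 32.5 in the 168 ein2 libraries. The summed level of 4 leaf mesophyll genes (RBCS1A, LHCB1.1, LHCB1.3 and RCA) was 6266 to 233122 and none of them was at 0 in any library. This sum was lower in EIN2 than in ein2 genotypes at 2 h (medians 31950 and 51844), 3 h (20903 and 33858) and 5 h (13380.5 and 19995), and closer at 1 h (50380 and 55385), 9 h (25368 and 23640) and 18 h (64539 and 74617). Its part in the values below was not tested. In bulk leaves, fewer cells of a type and less RNA per cell cannot be told apart. FLS2 transcripts were also fewer in ein2 genotypes, with medians of 45.9 in EIN2 and 3.55 in ein2 libraries at 0 h, 821 and 563 at 1 h, and 77.7 and 16.4 at 18 h. The part of this receptor difference in the members' values was not tested.

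To show where the members lie within the choice, 4 criteria modelled on those given for ET markers in the study's supplement were applied to fitted responses of the genes that passed the filter. The response of JEPS had to exceed 3 on the log2 scale at its peak, and to exceed that of fls2 by 1.5. In each of the 8 pairs of genotypes that differ only in EIN2, the ein2 response at that time had to be under 2/3 of the EIN2 response. The standard deviation of the ein2 responses over all genotypes and times had to be under 0.25 of the highest EIN2 response. The genes meeting all criteria were the 9 members, which is no finding, since the members were chosen on such values. The study's list of candidates was longer. ARGOS, the marker it used, failed the filter on low counts here and could not be chosen. Without the pair criterion 588 genes remained, without the height criterion 16, without the spread criterion 10 and without the receptor criterion 9. The members nearest the limit of the pair criterion were DMR6 (worst ratio 0.645), AT5G27760 (0.64), PCR1 and AT1G30070 (0.637 each), and SAL2 was farthest inside with 0.45. Just outside were AT2G29500 (0.699) and RBOHD, the NADPH oxidase of the oxidative burst (0.704), which met the ratio in 6 of 8 pairs. LURP1 missed the spread criterion with 0.34.

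The label held for the response and not throughout for the level. The response at the peak was lower in ein2 in all 8 pairs for 9 of 9 members, as the rule required. The level at the peak was lower in all 8 pairs for 7 of 9, the exceptions being AT1G58225 and DMR6, in which it was lower in 6 of 8. At 0 h the median of the pairs was higher in ein2 for 9 of 9 members, although for AT1G30070 (-0.01, EIN2 minus ein2) and AT5G27760 (-0.07) hardly so. The rule favoured this order too, because the response subtracts the 0 h level. The share of all genes with such a median was not computed. A smaller response in ein2 thus came from a lower peak, a higher start or both, depending on the member.

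The 250 bases before each annotated gene start were searched in the RefSeq sequence of TAIR10.1 on both strands. The letters of the W box, bound by WRKY factors (TTGACC or TTGACT), occurred in 5 of 9 members, beside 28.4% of all 27443 promoters. PCR1, DMR6, AT1G30070 and AT2G15220 had none. Of these, AT1G30070 peaked at 2 h and AT2G15220 at 1 h, so a missing W box did not mark the late members. The GCC box of ethylene response factors (GCCGCC), the G box (CACGTG) and the 8 forms of the EIN3 site occurred in 0 of 9, beside 1.87%, 6.49% and 5.93% of all promoters. AT1G58225 had 4 W boxes, starting 180, 144, 135 and 78 bases before the gene start, and AT3G16530 had 1, at 44 bases. They are printed with PCR1 and DMR6, the members that peaked at 18 h, which had none. The windows lie at chr1:21563861-21564110 (plus strand), chr3:5625520-5625769 (minus strand), chr1:5133861-5134110 (minus strand) and chr5:8378509-8378758 (plus strand). Each is written 5′ to 3′ toward the gene start, and capitals mark the letters of a W box on either strand.
AT1G58225: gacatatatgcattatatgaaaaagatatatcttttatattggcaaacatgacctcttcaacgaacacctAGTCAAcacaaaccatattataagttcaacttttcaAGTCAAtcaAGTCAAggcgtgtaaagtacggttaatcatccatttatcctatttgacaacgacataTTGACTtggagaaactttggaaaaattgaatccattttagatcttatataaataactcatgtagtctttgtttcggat
AT3G16530: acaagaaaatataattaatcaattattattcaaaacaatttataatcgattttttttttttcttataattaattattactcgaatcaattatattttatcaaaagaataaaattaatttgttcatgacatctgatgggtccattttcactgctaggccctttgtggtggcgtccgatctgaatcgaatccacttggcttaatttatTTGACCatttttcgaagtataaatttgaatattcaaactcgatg
PCR1: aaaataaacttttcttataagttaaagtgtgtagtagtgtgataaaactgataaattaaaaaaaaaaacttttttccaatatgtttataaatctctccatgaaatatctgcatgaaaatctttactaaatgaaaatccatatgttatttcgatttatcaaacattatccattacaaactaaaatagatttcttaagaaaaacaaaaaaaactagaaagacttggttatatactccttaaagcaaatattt
DMR6: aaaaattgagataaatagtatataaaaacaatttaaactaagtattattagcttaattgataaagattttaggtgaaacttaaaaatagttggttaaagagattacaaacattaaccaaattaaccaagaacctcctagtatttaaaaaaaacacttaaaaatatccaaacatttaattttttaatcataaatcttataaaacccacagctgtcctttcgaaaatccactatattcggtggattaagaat

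**Figure D1:**
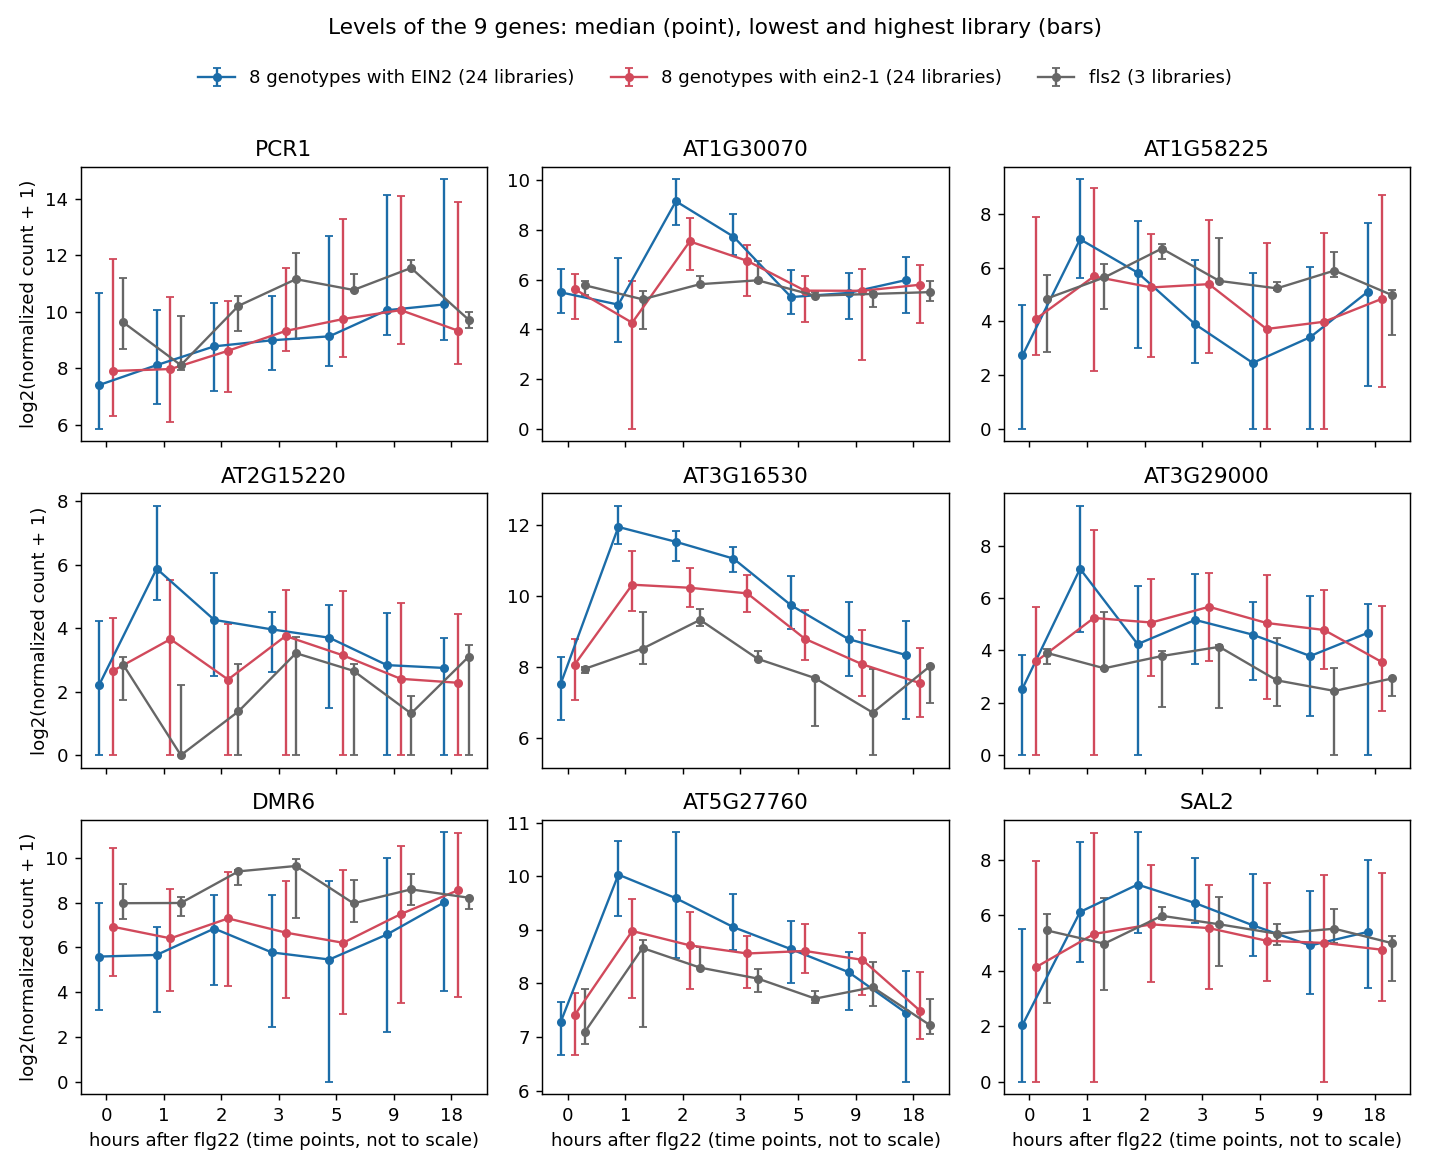
Level of the 9 members, as log2(normalized count + 1), over 7 time points, with a panel per gene, joined points for the medians of the 24 EIN2 libraries, the 24 ein2 libraries and the 3 fls2 libraries per time, and bars from the lowest to the highest library. AT3G16530 separates fully at 1, 2 and 3 h, whereas DMR6, AT1G58225, PCR1, AT1G30070, AT2G15220 and AT5G27760 overlap at every time.

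AT3G16530, at chr3:5624326-5625519 on the minus strand of TAIR10.1, encodes a legume lectin-like protein, and its EIN2 and ein2 libraries stayed apart without overlap at more times than those of any other member. In JEPS its 3 replicates read 219, 183 and 244 normalized counts at 0 h and 4055, 3927 and 3111 at 1 h. In JePS they read 440, 416 and 247 at 0 h and 2111, 1519 and 754 at 1 h. In fls2 they read 749, 362 and 269 at 1 h. All JEPS libraries at 1 h were thus above all JePS and fls2 libraries. Over all genotypes at 1 h, the 24 EIN2 libraries ranged from 2825 to 5909 with a median of 3913, and the 24 ein2 libraries from 754 to 2424 with a median of 1266. The ranges did not overlap at 1, 2 or 3 h, and no ein2 library reached the EIN2 median at 5 h. The level was higher in EIN2 in all 8 pairs at 1, 2, 3, 5 and 9 h, by a median of 1.42 on the log2 scale at 1 h and 0.75 at 9 h. At 0 h it was lower in EIN2 in all 8 pairs (median -0.53). The annotation has AT3G16525 on the opposite strand at this locus, and only forward-strand reads were counted.

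AT5G27760 (chr5:9830251-9831872, plus strand), named for a family of hypoxia-responsive proteins, behaved similarly for a shorter time. Its JEPS replicates read 152, 112 and 168 at 0 h and 1217, 869 and 1524 at 1 h. Its JePS replicates read 621, 384 and 669 at 1 h, below every JEPS library. At 1 h the EIN2 libraries ranged from 615 to 1623 (median 1044) and the ein2 libraries from 211 to 760.1 (median 503). The level was higher in EIN2 in all 8 pairs at 1, 2 and 3 h, with medians of 1.17, 1.07 and 0.50, and no ein2 library was above the EIN2 median at those times. At 9 h the direction was opposite in all 8 pairs (median -0.21). AT5G27750 lies on the same strand and overlaps this gene, so the assignment of reads between the pair is uncertain.

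AT1G30070 (chr1:10546511-10548236, minus strand) encodes a protein with an SGS domain, a fold found in co-chaperones, and its JEPS libraries exceeded all fls2 libraries at 2 and 3 h and at no other time. JEPS replicates read 44.8, 42.5 and 80.2 at 0 h, 55.3, 23.1 and 15.6 at 1 h, and 598, 495 and 456 at 2 h. JePS replicates read 173, 187 and 149 at 2 h. The fls2 replicates at 2 h read 55.3, 54.3 and 70.2, close to their values at 0 h. The 3 genotypes were therefore fully ordered at 2 h, with JEPS above JePS and JePS above fls2. The EIN2 libraries ranged from 292 to 1048 (median 568) and the ein2 libraries from 82.1 to 352 (median 185), so that only the tails overlapped. The level was higher in EIN2 in all 8 pairs at 2 h (median 1.72) and at 3 h (median 0.92). It differed little at 5 h (median 0.06) and at 9 h (median -0.08).

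AT2G15220 (chr2:6608561-6609681, plus strand) encodes a basic secretory protein and had the fewest reads, with a median count of 3 and no read in 47 of 357 libraries. JEPS replicates had 0, 3 and 3 reads at 0 h and 21, 16 and 52 reads at 1 h, or 44.7, 33.6 and 90.2 normalized counts. JePS replicates read 19.0, 18.9 and 15.9 normalized counts at 1 h, and fls2 replicates 0, 0 and 3.59. At 1 h the EIN2 libraries ranged from 28.4 to 230.4 (median 57.7) and the ein2 libraries from 0 to 45.1 (median 11.6). The level was higher in EIN2 in all 8 pairs at 1 h (median 2.07) and 2 h (median 1.80). At other times most groups had under 10 reads per library, so smaller differences were not detectable at this depth.

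AT3G29000 (chr3:11005638-11006514, plus strand), a calcium-binding protein with EF hands, was higher in EIN2 in all pairs only at 1 and 18 h. JEPS replicates read 8.96, 10.6 and 0 at 0 h and 247, 126 and 74.6 at 1 h. JePS replicates read 101.4, 18.9 and 37.2 at 1 h, and the highest of them was above the lowest JEPS replicate. At 1 h the EIN2 libraries ranged from 24.9 to 733 (median 138) and the ein2 libraries from 0 to 383 (median 36.8), with a median pair difference of 1.98. At 2 h the order of the medians turned, to 17.9 in EIN2 and 32.5 in ein2 libraries, and the level was higher in ein2 in 7 of 8 pairs. It was higher in ein2 in all 8 pairs at 9 h (median -0.94) and higher in EIN2 in all 8 at 18 h (median 0.81).

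SAL2 (chr5:25616625-25618631, plus strand) belongs to a family of phosphatases that act on inositol phosphates and on adenosine bisphosphates. JEPS replicates read 44.8, 18.6 and 1.78 at 0 h and 268, 102 and 223 at 2 h. JePS replicates read 53.4, 58.0 and 149 at 0 h and 115, 49.4 and 88.3 at 2 h. In JePS the values before and after flg22 thus overlapped, whereas in JEPS they did not. At 2 h the EIN2 libraries ranged from 39.8 to 507 (median 137) and the ein2 libraries from 11.0 to 225 (median 50.0). At 0 h the order was opposite, with medians of 3.14 in EIN2 and 16.6 in ein2 libraries, and the level was lower in EIN2 in all 8 pairs. The response was higher in EIN2 in all 8 pairs at all 6 times, and the level at 2 h only. In SAL2, AT1G58225 and AT2G15220, 1 EIN2 genotype had no reads at 0 h, so the response of that genotype has no stable value. AT5G09175 and AT5G64010, annotated on the opposite strand, overlap SAL2.

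AT1G58225 (chr1:21564111-21565261, plus strand), a gene for an uncharacterized protein, was lower in EIN2 than in ein2 genotypes before flg22 in 7 of 8 pairs. JEPS replicates read 13.4, 2.65 and 16.0 at 0 h and 236, 141 and 329.5 at 1 h. JePS replicates read 65.8, 52.9 and 194 at 0 h and 275, 138 and 499 at 1 h. At 1 h wild type and the ein2 single mutant thus had overlapping levels, and their responses differed through 0 h. Over all genotypes at 0 h the median was 5.62 in EIN2 and 16.1 in ein2 libraries, and all 24 ein2 libraries were above the EIN2 median. At 1 h the medians were 132 and 49.9, with 6 of 8 pairs higher in EIN2. At 3 h the level was higher in ein2 in all 8 pairs (medians 13.8 in EIN2 and 40.7 in ein2 libraries). JEPS was also below fls2 at 3, 5 and 9 h without overlap, for example 4.35, 8.39 and 12.4 against 42.5, 36.4 and 34.4 at 5 h.

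PCR1 (chr1:5132506-5133860, minus strand) encodes a small cysteine-rich membrane protein named for cadmium resistance, and it peaked at 18 h. JEPS replicates read 12959, 15456 and 16255 at 18 h, JePS replicates 12189, 10653 and 14907, and fls2 replicates 1026, 681 and 843. Wild type and the ein2 single mutant overlapped at 18 h. At 0 h the JePS replicates read 3296, 1656 and 3707, above the JEPS replicates of 1629.9, 167 and 173. Replicate 1 of JEPS at 0 h stood apart from the others, and the JEPS response of 4.53 at 18 h includes it. Over all genotypes at 18 h the level was higher in EIN2 in all 8 pairs, by a median of 0.89, and the ranges overlapped (512 to 26295 and 284 to 14907). At 5 h it was higher in EIN2 in 1 of 8 pairs only.

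DMR6 (chr5:8378759-8383401, plus strand) encodes a salicylate hydroxylase whose loss makes plants resistant to downy mildew, and its level at the peak had the smallest median EIN2 minus ein2 difference of the 9. JEPS replicates read 251, 69.0 and 90.9 at 0 h and 1145, 1988 and 1862 at 18 h. JePS replicates read 818, 459 and 1382 at 0 h and 1727, 2196 and 1652 at 18 h. The ein2 single mutant was therefore higher than wild type at 0 h without overlap, and overlapped with it at 18 h. The level was lower in EIN2 in all 8 pairs at 0 h (median -1.33) and higher in 6 of 8 at 18 h (median 0.60). Over the 6 times after flg22, 15 of 48 combinations of pair and time had a higher level in EIN2, and 38 of 48 a higher response.

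**Figure D2:**
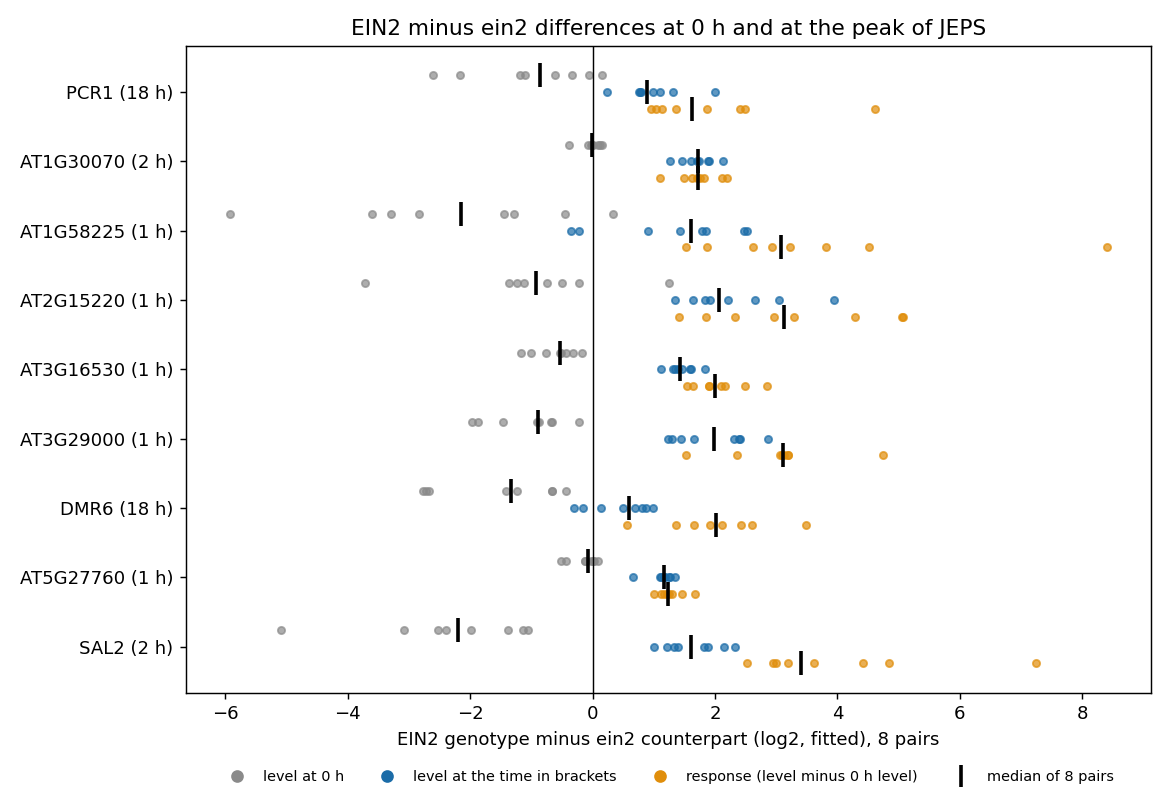
EIN2 minus ein2 difference in log2 level for each member at 0 h and at its peak time, and in response at the peak, with a point for each of the 8 genotype pairs and a bar at the median. Every member has a median above 0 at its peak, and at 0 h the medians lie below 0 apart from those of AT1G30070 and AT5G27760, which are close to 0. In SAL2, AT1G58225 and AT2G15220 the 0 h level and the response of 1 pair rest on a genotype with no reads and have no stable value.

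Ordered by their mean at the peak time, the 16 genotypes fell into EIN2 and ein2 blocks for 4 members and not for the others. For AT3G16530 the 8 EIN2 genotypes ran from jEPs (4410 ± 1366 normalized counts, SD, n = 3) to JEPs (3433 ± 570), and the ein2 genotypes followed from JepS (1696 ± 636) to jeps (1165 ± 227), with fls2 last (460.3 ± 254). Neighbours within each block differed by less than their SDs. AT5G27760, AT1G30070 and AT2G15220 had the same division, with the lowest EIN2 genotype at 896 ± 202 (jEps), 354 ± 50.8 (JEps) and 51.0 ± 11.7 (jEps), and the highest ein2 genotype at 576 ± 128 (jePS), 271 ± 23.0 (jePS) and 18.8 ± 22.8 (JepS). Within the EIN2 block of AT1G30070, jEPS stood highest at 905 ± 140. For DMR6 at 18 h the order began with JePS (1858 ± 295), jEPS (1749.5 ± 436) and JEPS (1665 ± 455), which overlapped, and ended with jeps (36.4 ± 31.8). For PCR1 it began with jEPS (23934 ± 3230) and JEPS (14889.8 ± 1719.4) and ended with Jeps (356 ± 63.4). For AT1G58225 at 1 h JePS (304 ± 182) came second after jEPS (413 ± 189), and for AT3G29000 jePS (184 ± 174) lay above 4 of the EIN2 genotypes. For SAL2 at 2 h jePS (144 ± 69.6) was level with jEpS (144 ± 110.0), and both lay far above Jeps and jeps (22.9 ± 4.74 and 21.7 ± 11.2).

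Over the 48 combinations of pair and time after flg22, the level was higher in EIN2 in 47 for AT3G16530, 37 for AT1G30070, 36 for SAL2, 33 for AT5G27760, 32 for AT2G15220, 25 for PCR1, 21 each for AT1G58225 and AT3G29000, and 15 for DMR6. The response was higher in EIN2 in 36 to 48 of 48 for every member. The EIN2 minus ein2 difference in level at the peak was positive in each of the 3 replicates for all 9 members. These are the libraries that chose the members, so the agreement was favoured by the choice and is no separate support. In fls2 the fitted responses at these peak times were 0.22 for AT1G30070, -1.73 for AT2G15220, -0.47 for PCR1 and -0.11 for DMR6. They were higher for AT5G27760 (1.03) and AT3G16530 (0.94). AT3G16530 also rose in leaves without the receptor, with every fls2 replicate at 1 h above those at 0 h. For AT5G27760, AT1G58225, AT3G29000 and SAL2 the fls2 replicates at the peak overlapped those at 0 h. JEPS and fls2 did not overlap at the peak time of any member, which the receptor criterion also favoured.

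The effects of the other sectors are other contrasts than the one that chose the members, and they were tested on the level. They are not fully independent of the choice, which used the same libraries. It asked for a high response of JEPS, which belongs to the intact side of every test among EIN2 genotypes, and its pair and spread criteria used the responses of all 16 genotypes. An alternative chosen after seeing the data therefore left JEPS and its counterpart out of the tests among EIN2 genotypes. Each test compared 12 libraries with an intact gene with 12 libraries carrying the mutation, separately among EIN2 and among ein2 genotypes and at each time, by edgeR's quasi-likelihood test with Benjamini-Hochberg adjustment over 11848 genes. Of the 63 combinations of member and time, intact PAD4 was called higher in 24 among EIN2 genotypes and in 30 among ein2 genotypes, against 2.06% and 3.21% of all genes and times. The median PAD4 effect of the 9 members at 1 h was 0.96 among EIN2 and 1.49 among ein2 genotypes, beside -0.06 and -0.05 over all genes. The same 5 members carried the higher calls in both backgrounds, PCR1, DMR6, AT1G58225, SAL2 and AT3G29000. The 4 others had no higher call. No combination was called lower among ein2 genotypes, against 1.86%. Among EIN2 genotypes AT3G16530 had the sole lower one (-0.58 ± 0.16 SE, adjusted p = 0.005, at 18 h among EIN2 genotypes, against 2.02% of all genes and times), which was lost without replicate 1 or 2 (adjusted p = 0.057 each). Without JEPS and its counterpart, 21 of the 24 higher PAD4 calls among EIN2 genotypes stayed, and those lost were PCR1 at 0 h (1.05, adjusted p = 0.066), AT3G29000 at 1 h (0.91, adjusted p = 0.085) and SAL2 at 2 h (0.98, adjusted p = 0.083).

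**Figure D3:**
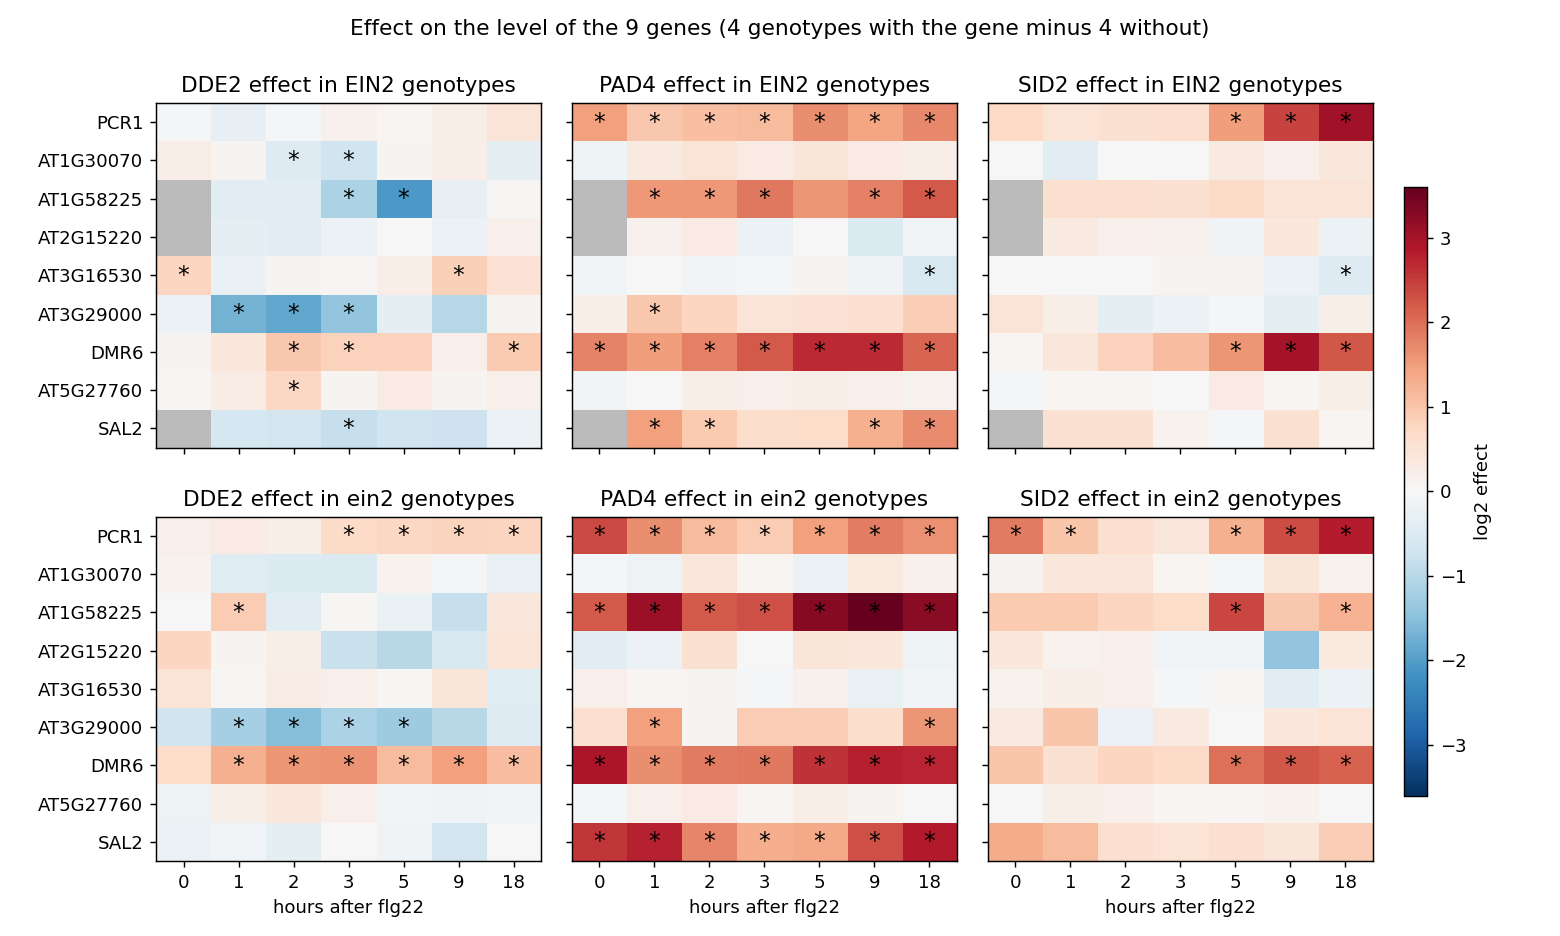
Effect of an intact DDE2, PAD4 or SID2 on the log2 level of each member at each time, among EIN2 and among ein2 genotypes, as colours from lower (blue) to higher (red), with asterisks for calls at an adjusted p under 0.05 and grey where a group had no reads. PCR1 and DMR6 carry an asterisk for PAD4 at all 7 times in both backgrounds.

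PCR1 and DMR6 were higher with PAD4 at all 7 times in both backgrounds, 0 h included, although several of these calls needed all 3 replicates. For DMR6 at 0 h the EIN2 libraries with PAD4 ranged from 47.8 to 251 (median 85.3) and those with pad4-1 from 8.11 to 46.4 (median 30.7), without overlap. That effect was 1.78 ± 0.32 on the log2 scale (SE, adjusted p = 3.7e-05), and without replicate 1 it was 1.35 and the call was lost (adjusted p = 0.051). Among ein2 genotypes at 0 h the medians were 421 and 47.7 and the effect was 2.93 ± 0.27 (adjusted p = 1.7e-19). After flg22 the effect on DMR6 ranged from 1.51 to 2.69 among EIN2 and from 1.67 to 2.79 among ein2 genotypes. The call at 1 h among EIN2 genotypes was lost without replicate 3 (1.25, adjusted p = 0.17). For PCR1 the effect after flg22 ranged from 0.97 to 1.72 and from 0.91 to 1.83. Its calls among EIN2 genotypes were lost at 0 h without replicate 1 (0.95, adjusted p = 0.051) and at 1, 2 and 3 h without replicate 3 (adjusted p = 0.31, 0.41 and 0.059). Among ein2 genotypes those at 2 and 3 h were lost without replicate 3 (adjusted p = 0.051 and 0.28).

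AT1G58225 was higher with PAD4 at 5 of 7 times among EIN2 and at 7 of 7 among ein2 genotypes. At 1 h, ein2 libraries with PAD4 ranged from 57.4 to 499 (median 141) and those with pad4-1 from 3.45 to 42.5 (median 14.6), without overlap, an effect of 3.07 ± 0.32 (adjusted p = 3.9e-17). Among EIN2 genotypes at 1 h the medians were 267 and 69.0 and the effect was 1.57 ± 0.24 (adjusted p = 3.5e-07). SAL2 was higher with PAD4 at 4 of 7 and 7 of 7 times, with medians of 101 and 16.1 among ein2 genotypes at 1 h (2.77 ± 0.36, adjusted p = 2.1e-12). AT3G29000 was called for PAD4 at 1 h in both backgrounds (0.96 ± 0.24 and 1.49 ± 0.33) and at 18 h among ein2 genotypes (1.59 ± 0.46). Of the 54 higher PAD4 calls, 38 remained in all 3 fits that left out a replicate, as did 12 of 16 higher SID2 calls, 7 of 17 higher DDE2 calls and 5 of 12 lower DDE2 calls. The calls of AT3G29000 were lost at 1 h without replicate 1 (adjusted p = 0.95 and 0.34), at 1 h among EIN2 genotypes also without replicate 3 (adjusted p = 0.22), and at 18 h without replicate 3 (adjusted p = 0.15). Among EIN2 genotypes, those of SAL2 were lost at 1 h without replicate 1 (adjusted p = 0.065), at 2 h without replicate 1 or 3 (adjusted p = 0.10 and 0.97) and at 9 h without replicate 3 (adjusted p = 0.36), and that of AT1G58225 at 9 h without replicate 2 or 3 (adjusted p = 0.17 and 0.062). Among ein2 genotypes SAL2 lost its call at 3 h without replicate 1 or 3 (adjusted p = 0.16 and 0.10).

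These PAD4 effects were called on the level and were not shown for the response. When the response was tested in place of the level, no member was called higher with PAD4 at any time in either background. PCR1 was then called lower with PAD4 at 2 h (-1.22) and 3 h (-1.46) among ein2 genotypes. Some other effects kept their direction without a call and others reversed. A response also carries the scatter at 0 h, so a missing call is no absence of an effect. In SAL2 and AT1G58225 an EIN2 genotype had no reads at 0 h, so their responses among EIN2 genotypes have no stable value.

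SID2 effects were called for fewer members and mostly later. Intact SID2 was called higher in 6 of 63 combinations among EIN2 genotypes and in 10 among ein2 genotypes, against 2.16% and 1.4% of all genes and times. The 6 calls were PCR1 and DMR6 at 5, 9 and 18 h, and the same 6 combinations were called among ein2 genotypes, where none was called lower (against 1.46%). With the replicate number as a block, the calls among ein2 genotypes were 18 higher and 1 lower. The share over all genes was not computed for that fit. At 18 h the EIN2 libraries with SID2 had a median of 11629 normalized counts of PCR1 and those with sid2-2 845, an effect of 3.03 ± 0.21 (adjusted p = 2.6e-27). Among ein2 genotypes the medians were 5173 and 391 and the effect was 2.84 ± 0.21 (adjusted p = 1.9e-24). The effect on DMR6 at 9 h was 2.99 ± 0.32 among EIN2 and 2.23 ± 0.28 among ein2 genotypes. The DMR6 call at 5 h among EIN2 genotypes (1.59 ± 0.36, adjusted p = 0.047) was lost without replicate 1 (1.53, adjusted p = 0.11) or 3 (1.07, adjusted p = 1.0), and also without JEPS and its counterpart (1.32, adjusted p = 0.76). The remaining calls were among ein2 genotypes, PCR1 at 0 and 1 h (1.87 ± 0.23 and 1.01 ± 0.23) and AT1G58225 at 5 and 18 h (2.40 ± 0.68 and 1.24 ± 0.34). Of these, PCR1 at 1 h was lost without replicate 2 or 3 (adjusted p = 0.13 and 0.81), AT1G58225 at 5 h without replicate 2 (adjusted p = 1.0) and at 18 h without replicate 1 or 3 (adjusted p = 0.14 and 0.053). AT3G16530 was lower with SID2 at 18 h among EIN2 genotypes (-0.47 ± 0.16, adjusted p = 0.02, against 3.22% of all genes and times), a call lost without replicate 1 (adjusted p = 0.17) or 3 (0.33) and without JEPS and its counterpart (adjusted p = 0.076). When the response was tested in place of the level, no combination was called higher with SID2 among ein2 genotypes. The effect on PCR1 reversed there at 1 h (-0.86) and 5 h (-0.60).

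At 18 h PCR1 was highest where PAD4 and SID2 were both intact, and with SID2 alone its level split by DDE2. The 6 EIN2 libraries with both genes intact ranged from 12959 to 26295 (median 18254) and those with neither from 577 to 917. With SID2 alone, JEpS read 9674 ± 609.8 normalized counts (SD, n = 3) and jEpS 913 ± 254. With PAD4 alone, JEPs read 865 ± 318 and jEPs 1655.5 ± 349. The genotype with SID2 alone was thus above the one with PAD4 alone where DDE2 was intact, and below it where DDE2 was mutated. Among ein2 genotypes JepS read 3895 ± 847 and jepS 527 ± 149. DMR6 at 18 h was split alike, with 1089.6 ± 153 in JEpS and 102 ± 19.4 in jEpS, and 592 ± 205 in JepS and 71.8 ± 27.1 in jepS. These orders were not tested.

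DDE2 effects went both ways. Intact DDE2 was called higher in 6 and lower in 8 of 63 combinations among EIN2 genotypes, against 4.68% and 3.55% of all genes and times, and higher in 11 and lower in 4 among ein2 genotypes, against 3.86% and 3.21%. With the replicate number as a block, the calls were 10 higher and 13 lower among EIN2 genotypes and 8 lower among ein2 genotypes. No share over all genes was computed for the fit with the block. Without JEPS and its counterpart, the lower calls among EIN2 genotypes were 5, against 2.61% of all genes and times. AT3G29000 held 7 of the 12 lower calls. At 1 h its EIN2 libraries with DDE2 ranged from 24.9 to 249 (median 78.2) and those with dde2-2 from 90.6 to 733 (median 271), and all 12 dde2-2 libraries were above the DDE2 median. The effect was -1.71 ± 0.24 (adjusted p = 1.8e-09) at 1 h, -1.87 ± 0.37 at 2 h and -1.42 ± 0.30 at 3 h. Among ein2 genotypes it ranged from -1.53 to -1.15 over 1 to 5 h, where the call at 1 h was lost without replicate 1 or 3 (adjusted p = 0.079 and 0.061) and that at 5 h without replicate 2 or 3 (adjusted p = 0.055 each). DMR6 was higher with DDE2 at 1 to 18 h among ein2 genotypes (1.12 to 1.61) and at 2, 3 and 18 h among EIN2 genotypes (0.82 to 0.97). Its calls at 1 and 5 h among ein2 genotypes were lost without replicate 3 (adjusted p = 0.066 and 0.089). Among EIN2 genotypes that at 3 h was lost without each of the 3 replicates in turn (adjusted p = 0.06 to 0.22) and that at 18 h without replicate 1 or 2 (adjusted p = 0.081 and 0.55). PCR1 was higher at 3 to 18 h among ein2 genotypes (0.70 to 0.79), calls that were lost without replicate 3 (adjusted p = 0.13 to 0.21).

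The other DDE2 calls covered 1 or 2 times per member and background. AT1G30070 was lower at 2 h (-0.47 ± 0.17) and 3 h (-0.73 ± 0.18), SAL2 at 3 h (-0.82 ± 0.26) and AT1G58225 at 3 h (-1.13 ± 0.41) and 5 h (-2.06 ± 0.80), all among EIN2 genotypes. Each of these 5 calls was lost both without replicate 1 and without replicate 2, with adjusted p from 0.059 to 0.53, and those of AT1G30070 at 2 h, SAL2 at 3 h and AT1G58225 at 3 h also without JEPS and its counterpart (adjusted p = 0.26, 0.18 and 0.14). AT3G16530 was higher at 0 h (0.78 ± 0.17) and 9 h (0.85 ± 0.16) and AT5G27760 at 2 h (0.75 ± 0.14) among EIN2 genotypes, and AT1G58225 at 1 h among ein2 genotypes (0.91 ± 0.32). The calls of AT3G16530 at 0 h and of AT1G58225 were lost without replicate 3 (adjusted p = 0.26 and 0.68). AT2G15220 had no call for any of the 3 sectors, and its low counts limit what could be seen.

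Whether a sector effect differed between EIN2 and ein2 genotypes was tested as an interaction. None of the 63 combinations passed for DDE2, PAD4 or SID2 in edgeR's fit of all group means. At an unadjusted p under 0.05 there were 10, 12 and 4 of 63, and DESeq2 called 0 for each, with 15, 13 and 6 at an unadjusted p under 0.05. The share over all genes at an unadjusted p was not computed, so these counts cannot be read as an excess. Other edgeR fits called some interactions. With the replicate number as a block, AT1G58225 passed at 1 h, with EIN2 minus ein2 differences of -1.32 in its DDE2 effect (adjusted p = 0.032) and of -1.56 in its PAD4 effect (adjusted p = 0.0075), and AT3G16530 passed at 18 h for DDE2 (0.99, adjusted p = 0.014). With lane as a factor these 3 passed as well, and DDE2 effects on AT5G27760 at 2 h (0.40), SAL2 at 3 h (-0.93) and PCR1 at 5 h (-0.72). With no filter on low counts 3 passed for DDE2, 2 for PAD4 and 1 for SID2. Without replicate 1, PCR1 at 0 h passed for SID2 (-1.80, adjusted p = 9.4e-04). Over all genes and times, the fit of all group means called 0.0313% higher and 0.0603% lower for DDE2, and 0 for PAD4 and SID2. These shares were not computed for the other fits, so they cannot be set beside the calls of those fits. The lowest adjusted p in the fit of all group means was 0.058, for AT3G16530 at 18 h, where the DDE2 effect was larger among EIN2 than among ein2 genotypes by 0.98 ± 0.23. Whether an effect differed between the backgrounds thus depended on the fit for these combinations, and for the others no difference was shown.

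Closely related genes outside the members offered a comparison, which is not independent of the choice. They resemble genes chosen for their EIN2 difference in the same libraries, and the criteria were applied to all genes that passed the filter. The closest protein by BLAST was found for 8 members, and 3 of these paralogs passed the filter on counts. Reads that mapped to more than 1 gene had been dropped, so shared sequence could lower the counts of either copy. Intact EIN2 was called higher in 14 and lower in 2 of their 21 combinations of gene and time, against 9.93% and 12.5% of all genes and times, with a median effect of 0.63 beside 0.01 over all genes. PCR2, with 83.6% identity to PCR1 over 152 residues, was higher with EIN2 from 1 to 18 h, by 1.24 ± 0.12 at 2 h (adjusted p = 5.6e-18) and 1.99 ± 0.13 at 18 h (adjusted p = 9.9e-34). AT3G15356, with 86.7% identity to AT3G16530 over 271 residues, was higher from 1 to 18 h by 1.08 to 1.61. AT5G39670, with 61.5% identity to AT3G29000, was lower at 0 h (-1.63 ± 0.49) and 9 h (-0.53 ± 0.17) and higher at 1 h (0.49 ± 0.16) and at 18 h (adjusted p = 3.7e-10). AT5G39670 was also higher with PAD4 at all 7 times in both backgrounds (1.32 to 3.49), and lower with DDE2 at 1 to 3 h among EIN2 genotypes (-1.01 to -1.50).

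**Figure D4:**
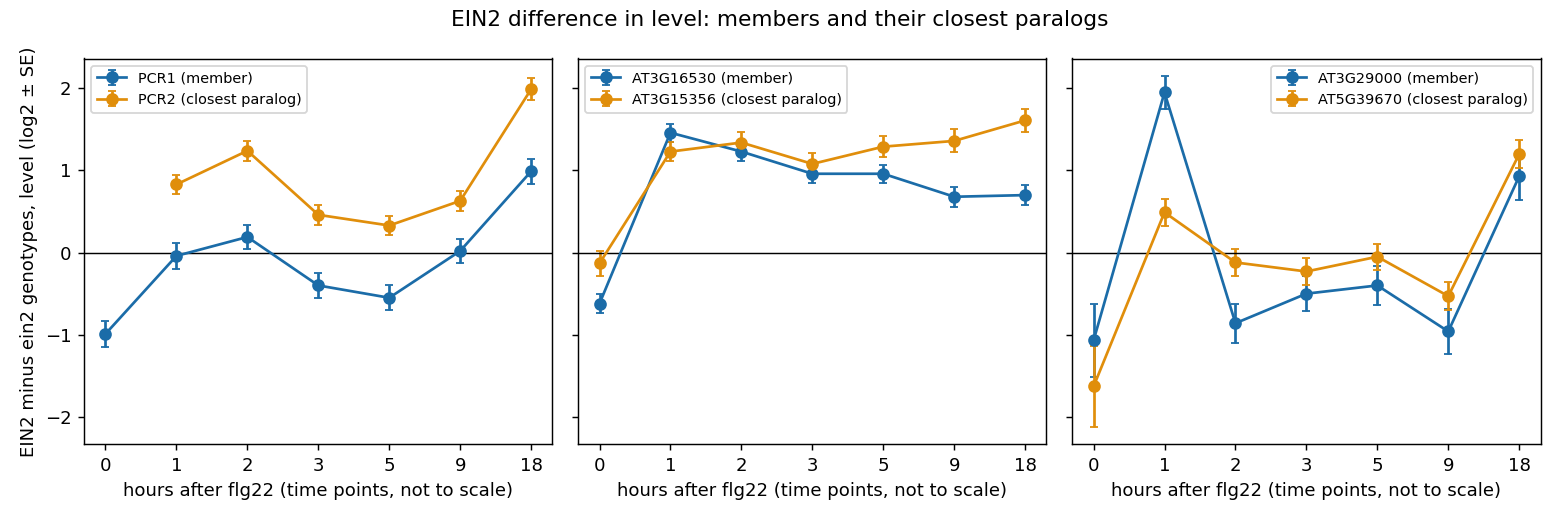
EIN2 minus ein2 difference in log2 level over time for 3 members and their closest paralogs, with bars of 1 SE. PCR1 and PCR2 are both highest at 18 h and AT3G15356 lies above 0 from 1 to 18 h. The 0 h value of PCR2 is not drawn because a group had no reads.

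Of 26 ethylene pathway and target genes, 17 passed the filter on counts. They include FLS2, whose difference is described above and which was called higher with EIN2 at every time. They also include ARL and EBF2, which the study showed as ET markers in these data. The comparison with all genes is thus not independent of these data. Intact EIN2 was called higher in 74 and lower in 6 of their 119 combinations of gene and time, against 9.93% and 12.5% of all genes and times, with a median effect of 0.62 beside 0.01 over all genes. The highest effects after 0 h were those of ARL, an organ growth regulator (4.96 ± 0.39 at 1 h, adjusted p = 5.9e-48), the transcription factor ERF2 (2.72 ± 0.42 at 2 h), the hevein-like PR4 (2.19 ± 0.20 at 5 h) and EBF2, an F-box protein that targets EIN3 (2.16 ± 0.11 at 18 h). EBF1, its relative, was the sole gene with lower calls (-1.46 ± 0.11 at 2 h). In contrast to the members, EBF2 was already higher with EIN2 at 0 h (2.16 ± 0.13, adjusted p = 3.5e-42), and 10 of the 17 genes were called higher then, against 1.16% of all genes. The response that chose the members subtracts the 0 h level. The rule thus favoured members without such a difference at 0 h, and this contrast is no finding about them.

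The members did not share a single pattern over the 119 groups of genotype and time. Their 36 pairwise Pearson correlations ranged from -0.32 to 0.89 with a median of 0.37, and 12 were above 0.5. AT3G16530 and AT5G27760 were most alike (0.89), AT2G15220 correlated at 0.75 with both, and PCR1 and DMR6 formed another pair (0.77). AT1G58225 and SAL2 correlated at 0.70. These groups share libraries, times and the scaling, and the values are descriptions. The genes outside the members that were most like the mean of their standardized patterns were AT4G03450 (0.89), AT1G67800 (0.885), CRT3 (0.873), AT2G04495 (0.866) and ALA1 (0.861). For single members the closest genes were AT1G15790 for PCR1 (0.903), SR30 for AT1G30070 (0.908), CRK6 for AT1G58225 (0.874), DGK5 for AT2G15220 (0.775), AT3G15356 for AT3G16530 (0.956), EDS1 for AT3G29000 (0.848), WAK1 for DMR6 (0.842), TSB1 for AT5G27760 (0.93) and CRK7 for SAL2 (0.871).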

How the data were processed

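Per the labels and the study's methods, the authors matched internal barcodes exactly, removed artifact reads with the fastx tools, mapped the Tag-Seq reads to TAIR10 transcripts with Bowtie 0.12.8, and summed per gene the reads on the forward strand that matched no other gene. The deposited values are these raw read counts of 33600 genes in 357 libraries, with replicates kept apart. Tag-Seq reads mark the transcript end, so counts were not divided by length.

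Genes were kept when under 50 libraries had no read and the count of rank 15 exceeded 25, which left 11848 of 26275 genes with a read. The study's methods state the same rules and report more genes left, and it could use ARGOS. The reason for this difference was not determined. In R 4.3.3 with edgeR 4.0.16, a quasi-likelihood model of 119 group means was fitted with an offset from each library's 90th percentile count divided by 300. Its trend of dispersions used 1500 genes. Contrasts were called at a Benjamini-Hochberg adjusted p under 0.05 over all tested genes at each time. The code was tested on simulated data. Each replicate is a pool of plants from its own 4 experiments, and the p-values measure the spread between such pools. By the study's methods and planting schedules a replicate number stands for 1 set of experiments shared by all genotypes, so the numbers pair the libraries. Deviations from the group means correlated at a median of 0.30 between libraries of the same number at a time (lowest -0.12) and of -0.18 between other numbers, and 356 of 357 libraries correlated best with their own number. Lanes held 1 or 2 times, so comparisons were made within a time. Harvest times of day differ between times. Alternatives were TMM, no filter, DESeq2 1.42.0, a fit per time point with no block, with a replicate block or with lane, a fold threshold, the response, leaving out each replicate and, chosen after seeing the data, leaving out JEPS.

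The members and the lists of ethylene genes and markers were chosen with earlier results of these data known. Named genes were all members, all tested paralogs, the 4 ethylene genes with the largest effect after 0 h and any moving opposite to the most, the 5 genes closest to the mean pattern and the closest to each member, and up to 3 genes just outside the selection. Paralogs were found with blastp 2.17.0+ among proteins translated from TAIR10.1, whose annotation gave coordinates. Hormone measurements were not used here.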

Additional observations from a re-analysis of the deposited data

How the results depend on the processing

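Of 101 sector effects called on single members, 62 were called under every alternative fit of the level that used all 16 genotypes. DESeq2 kept 97, TMM normalization 100, no filter on low counts 101, a fit per time point 95, lane as a factor 100, and a log2 effect above 1 as well 81. Leaving out replicate 1, 2 or 3 kept 82, 86 and 72. AT2G15220 failed the filter on low counts without replicate 3. TMM moved no median of all genes by more than 0.094. All of these effects kept their direction in those fits. The cause of the changes below was not tested, except that fewer libraries or a second threshold removes calls by construction.

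With the replicate block all 101 calls stayed. Shares over all genes were computed for the main fit and for the tests without JEPS only. The block raised the DDE2 calls among EIN2 genotypes to 10 higher and 13 lower, the lower DDE2 calls among ein2 genotypes to 8 and the SID2 calls there to 18 higher and 1 lower. It called interactions in 1 higher and 1 lower combination for DDE2 and 1 lower for PAD4, and moved no other count by over 1.5 times. Without JEPS and its counterpart, chosen after seeing the data, 38 of 46 calls among EIN2 genotypes stayed, with 5 lower DDE2 calls and 0 lower SID2 calls. Over all genes and times, those tests called 2.61% lower for DDE2 and 1.86% lower for SID2.

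Lane as a factor gave 14 lower DDE2 calls among EIN2 and 8 among ein2 genotypes, SID2 calls of 10 higher and 0 lower among EIN2 and 17 higher and 1 lower among ein2 genotypes, and interactions in 2 higher and 3 lower combinations for DDE2 and 1 lower for PAD4. Without the filter the lower DDE2 calls were 13 and 7 and the higher SID2 calls among ein2 genotypes 19, with 1 higher and 2 lower interactions for DDE2, 2 lower for PAD4 and 1 lower for SID2. Lower DDE2 calls among ein2 genotypes were 7 with DESeq2 and 7 with a fit per time point and no replicate block, and DESeq2 gave 0 lower SID2 calls among EIN2 genotypes.

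With a log2 effect above 1 as well, DDE2 calls were 0 higher and 5 lower among EIN2 and 6 higher among ein2 genotypes, the lower PAD4 and SID2 calls among EIN2 genotypes were 0, the paralogs had 9 higher and 1 lower and the ethylene list 37 higher and 2 lower. Leaving out a replicate gave DDE2 counts of 3 to 5 higher and 3 to 6 lower among EIN2 and 4 to 11 higher and 2 to 3 lower among ein2 genotypes. It gave 0 to 1 lower calls for PAD4 and for SID2 among EIN2 genotypes, 0 to 1 lower SID2 interactions and 0 to 1 lower calls of paralogs. The SID2 interaction was called without replicate 1.

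With the response in place of the level, DDE2 calls were 1 higher and 3 lower among EIN2 and 0 higher and 1 lower among ein2 genotypes, PAD4 calls 0 and 0 among EIN2 and 0 higher and 2 lower among ein2 genotypes, and SID2 calls 0 lower among EIN2 and 0 higher and 1 lower among ein2 genotypes. The paralogs had 0 lower calls and the ethylene list 7 higher and 23 lower, since a difference already present at 0 h is subtracted. Of 93 single effects after 0 h, 6 were kept, 56 lost their call and 31 reversed. For PCR1 and PAD4 the reversed values were -0.51, -0.40, -0.35 and -0.05 at 1, 2, 3 and 9 h among EIN2 genotypes and -0.69, -1.22, -1.46, -0.89, -0.53 and -0.72 at 1 to 18 h among ein2 genotypes. For PCR1 and SID2 among ein2 genotypes they were -0.86 at 1 h and -0.60 at 5 h. For AT1G58225 and PAD4 among EIN2 genotypes they were -0.53, -0.56, -0.20 and -0.28 at 1, 2, 3 and 9 h. For DMR6 and PAD4 they were -0.28 at 1 h among EIN2 genotypes and -1.26, -1.05, -1.03, -0.33, -0.15 and -0.20 at 1 to 18 h among ein2 genotypes. For SAL2 and PAD4 they were -1.42, -1.97, -1.60 and -1.18 at 1, 2, 9 and 18 h among EIN2 genotypes and -0.84, -1.27, -1.21 and -0.26 at 2, 3, 5 and 9 h among ein2 genotypes. The values of AT1G58225 and SAL2 among EIN2 genotypes rest in part on a genotype with no reads at 0 h.

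By Spearman correlation, 2 of the 5 genes closest to the mean pattern and the closest gene of 3 of 9 members stayed. In the whole 300 bases of the promoter window, 6 of 9 members held a W box, beside 32.4% of promoters. Depth limited AT2G15220, AT3G29000, AT1G58225 and SAL2, which had no read in 47, 13, 17 and 14 of 357 libraries.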
